A study of Homo sapiens with 30 samples.

Results

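Clone 10 and clone 11 are sublines of Rh30, an established cell line from an alveolar rhabdomyosarcoma in which the PAX3-FOXO1 gene fusion is present. In both, an FKBP degradation tag is joined to the fusion protein, and both were kept in the vehicle DMSO, so no compound had been given to remove the tagged protein. The 4 libraries compared are replicates 1 and 2 of each clone, taken from 30 samples of RNA sequencing in all. Every one of 23261 listed genes was eligible, and 13879 passed the filter on low counts and were tested. Clones 4 and 12 carry the same tag, and parental Rh30 carries none. Their levels place those of the compared clones, and the libraries of clones 4 and 12 also entered the fit, which shares 1 estimate of spread over the 4 tagged clones. Each clone is a single line with 2 libraries, and the labels do not say whether these came from separate cultures. The p-values therefore measure only the spread between the libraries of each of the 4 tagged clones, which may be technical, and a difference belongs to this pair of lines.

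PAX3-FOXO1 joins the DNA-binding part of PAX3, a transcription factor of muscle precursors, to the activation domain of FOXO1. The fusion protein holds rhabdomyosarcoma cells in a myoblast-like state in which MYOD1 and MYOG are on but muscle differentiation stays incomplete. Cells of a tumour line differ in copy number and in DNA methylation, and a line grown from a single cell carries the state of that cell forward. The extracellular matrix genes described below encode the fibres and adhesive proteins around cells, integrins are their receptors, and YAP and TAZ are coactivators that act with TEAD factors when cells are spread or under tension.

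Total counts were 22747634 and 19159020 in clone 10 and 24560297 and 17746684 in clone 11. Levels are given as normalised counts, scaled so that libraries of different depth can be compared, with replicate 1 before replicate 2. Log2 counts correlated at 0.989 (Pearson, across genes) between the clone 10 libraries and at 0.984 between those of clone 11. Between the clones the correlation was 0.927 to 0.940, across genes that are not independent replicates. The labelled cell type was checked first. MYOD1, the myogenic master regulator, stood at 51365 and 53680 in clone 10 and at 44875 and 51871 in clone 11. FGFR4, a growth factor receptor of this tumour, stood at 24988 and 25289 against 21323 and 32837. Of 12 identity markers, 1 was called higher in clone 10 and 2 in clone 11 (3 and 1 with the length correction described below), and their median log2 fold change was 0.00.

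The partners of the fusion did not pass the test. PAX3, whose count includes its part of the fusion transcript, was 592 and 482 in clone 10 and 354 and 295 in clone 11. The groups did not overlap, and the log2 fold change was 0.72 ± 0.33 (SE, n = 2 libraries per clone, adjusted p = 0.11 by edgeR's quasi-likelihood test). FOXO1, counted with the other part of the fusion, was 1095 and 763 against 947 and 611, which overlap, at 0.25 ± 0.25 (adjusted p = 0.463 by the same test). PAX3 passed in 4 of the 13 alternative analyses: with no low-count filter, with clones 10 and 11 alone, and with the replicate number as a block, both without and with the length correction described below. FOXO1 passed in none, and its log2 fold change was -0.06 with the length correction.

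A large part of the transcriptome differed between the clones. At an adjusted p under 0.05, 2603 genes were higher in clone 10, which is 18.8% of those tested, and 2363 were higher in clone 11, which is 17%. With a change of at least 2-fold the numbers were 1411 (10.2%) and 898 (6.47%). In all 4966 called genes, 35.8% of those tested, the libraries of one clone lay wholly above those of the other. So did those of 70.9% of all genes tested. The balance between the directions moved with the scaling: 52.4% of calls were higher in clone 10 with TMM factors and 63.4% with library totals, which shift the median of all genes by 0.11 on the log2 scale. Without clone 10 replicate 1, 1255 and 808 genes were called higher in clones 10 and 11. Without clone 10 replicate 2 the numbers were 1918 and 1549, without clone 11 replicate 1 they were 1733 and 1750, and without clone 11 replicate 2 they were 1463 and 1361. Each gene called below with values kept its call in all 13 alternatives unless a library or setting is named beside it. PSMB8 could be tested in 10 of the 13. Genes given only as neighbours in a run were not followed across them.

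**Figure D1:**
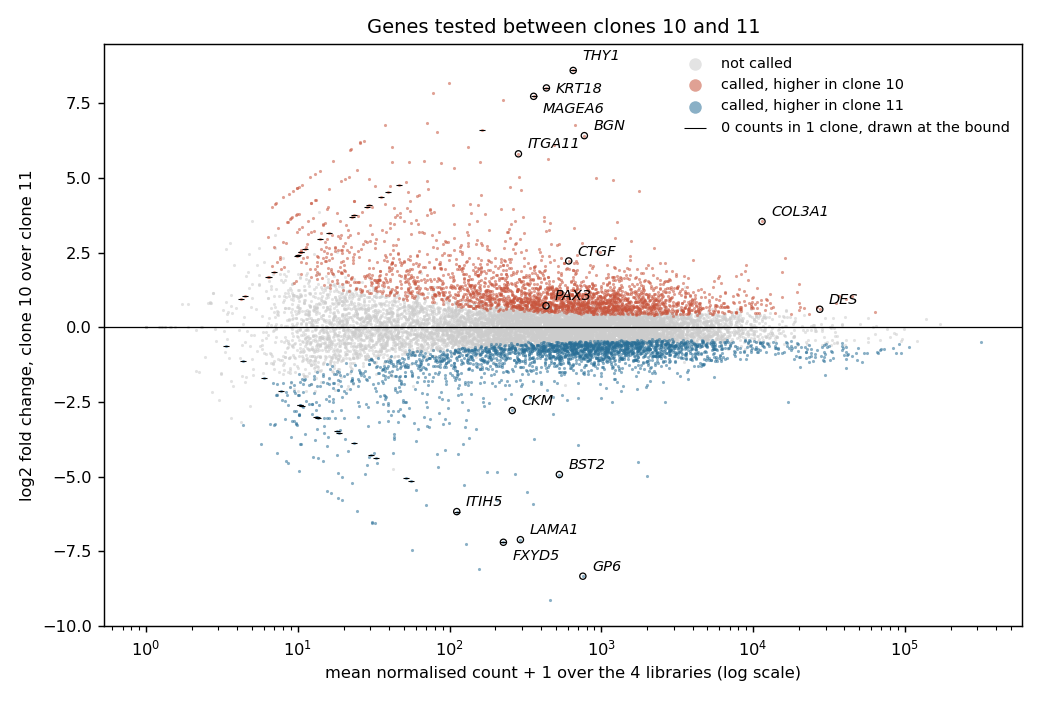
Log2 fold change of clone 10 over clone 11 (vertical axis) against the mean normalised count plus 1 over the 4 libraries (horizontal, log scale) for the genes tested, coloured where called; black dashes mark called genes without a count in one clone, drawn at the bound set by 3 counts per library. Called genes lie at every level of expression, with COL3A1 at 3.54 among the abundant genes and GP6 at -8.34 among the largest changes.

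Transcript length moved with the direction of change. The log2 fold change followed transcript length at a Spearman correlation of 0.36 over 13273 genes and GC content at -0.07. The median transcript was 5072 nt long among genes at least 2-fold higher in clone 10, 2633 nt among those higher in clone 11 and 3687 nt over all genes tested. With offsets for length and GC content, an alternative added after this was seen, the correlation with length was 0.02 and the calls numbered 2850 and 2766. Of the original calls, 2206 higher in clone 10 and 1877 higher in clone 11 were shared with it. List medians after this correction are given below as corrected medians. Counts of list members among the original calls are to be read beside the shares over all genes tested, 18.8% higher in clone 10 and 17% in clone 11. Those shares do not apply to list counts from the alternatives, each of which has its own totals. With the correction and the replicate block together, 3280 and 3153 of 13145 genes tested were called higher in clones 10 and 11. Fits with a library left out called fewer genes than the original in total, as given above, so their list counts cannot be set against these shares.

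The sharpest differences were genes at 100 or more normalised counts in both libraries of one clone and at 3 or fewer in both of the other. There were 9 such genes in clone 10 and 5 in clone 11. THY1, a surface glycoprotein of fibroblasts and neurons, was at 1087 and 1518 in clone 10 and had no count in either clone 11 library. It was thus at least 389-fold higher in clone 10, against a floor of 3 counts per library that covers counting error only. It was also high in clone 4 (543 and 749) and clone 12 (1237 and 1111) and near 0 in parental Rh30 (0.819 and 4.37). KRT18, a keratin of simple epithelia, was at 834 and 900 in clone 10 with no count in clone 11, at least 259-fold higher. It was as high in clone 4 (1170 and 1499) but not in clone 12 (3.70 and 0) or parental cells (1.64 and 2.18). KRT18 has many processed pseudogenes, between which the counting could split reads.

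Other genes of this group were high in clone 10 alone among the 5 lines. MAGEA6, a cancer-testis antigen normally confined to germ cells, was at 704 and 725 in clone 10, without a count in clones 4, 11 and 12, and at 8.19 and 5.09 in parental cells. The bound was at least 213-fold over clone 11. MAGEA3, its near-identical neighbour with which it can share reads, was at 23.7 and 36.1 in clone 10 and 0 in clone 11, but at 386 and 450 in parental Rh30. GABRA3, a GABA receptor subunit, was at 349 and 300 in clone 10, had no count in clone 11 and stayed at or under 1.23 in the other 3 lines. The bound was at least 96.9-fold. BDKRB2, the bradykinin B2 receptor, was at 203 and 190 against 0 and 1.33, a ratio of 295 with a 95% exact Poisson interval of 52.9 to 11639 from a single read in clone 11.

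The remaining 4 were PAMR1, a secreted protein, KAZN, which encodes a junction protein, PRICKLE1, a planar polarity protein, and ODZ2, a teneurin of the nervous system. PRICKLE1 was at 179 and 144 against 1.79 and 1.33, a ratio of 103 (interval 35.4 to 502). ODZ2 was at 159 and 149 in clone 10, at 0.896 and 0 in clone 11, and at 141 and 146 in parental cells. For ODZ2, then, clone 10 had the parental level and clone 11 did not.

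In the other direction, FXYD5, a modulator of the sodium pump, had no count in clone 10 and stood at 367 and 534 in clone 11, at least 147-fold higher there. Parental cells held 303 and 343, and clones 4 and 12 held at most 1.08. ITIH5, a hyaluronan-binding inhibitor family member, was at 0 and 0 in clone 10 and at 238 and 204 in clone 11, at least 72.3-fold higher. CLEC11A, a secreted growth factor for bone and blood precursors, was at 1.82 and 1.13 against 760 and 1073, a ratio of 622 (interval 213 to 3017). FBXO17, a ubiquitin ligase subunit, was at 0 and 2.25 against 308 and 311, and between 153 and 227 in every library of the other 3 lines. Clone 10 was thus the only line of the 5 without FBXO17, while FXYD5 was near 0 in 3 tagged clones. The fifth gene has only a locus name.

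Parental Rh30 held 4 of the 5 genes of clone 11 at 100 or more in both libraries, and 1 of the 9 genes of clone 10. Among all genes changed at least 2-fold, parental levels lay nearer to clone 10 for 43.4% of the 1411 higher in clone 10 and for 44.1% of the 898 higher in clone 11. For clone 4 these shares were 60.4% and 50.4%, and for clone 12 they were 47.6% and 40.8%. The line that held a gene therefore varied from gene to gene, as the plot of leading genes by library shows.

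**Figure D2:**
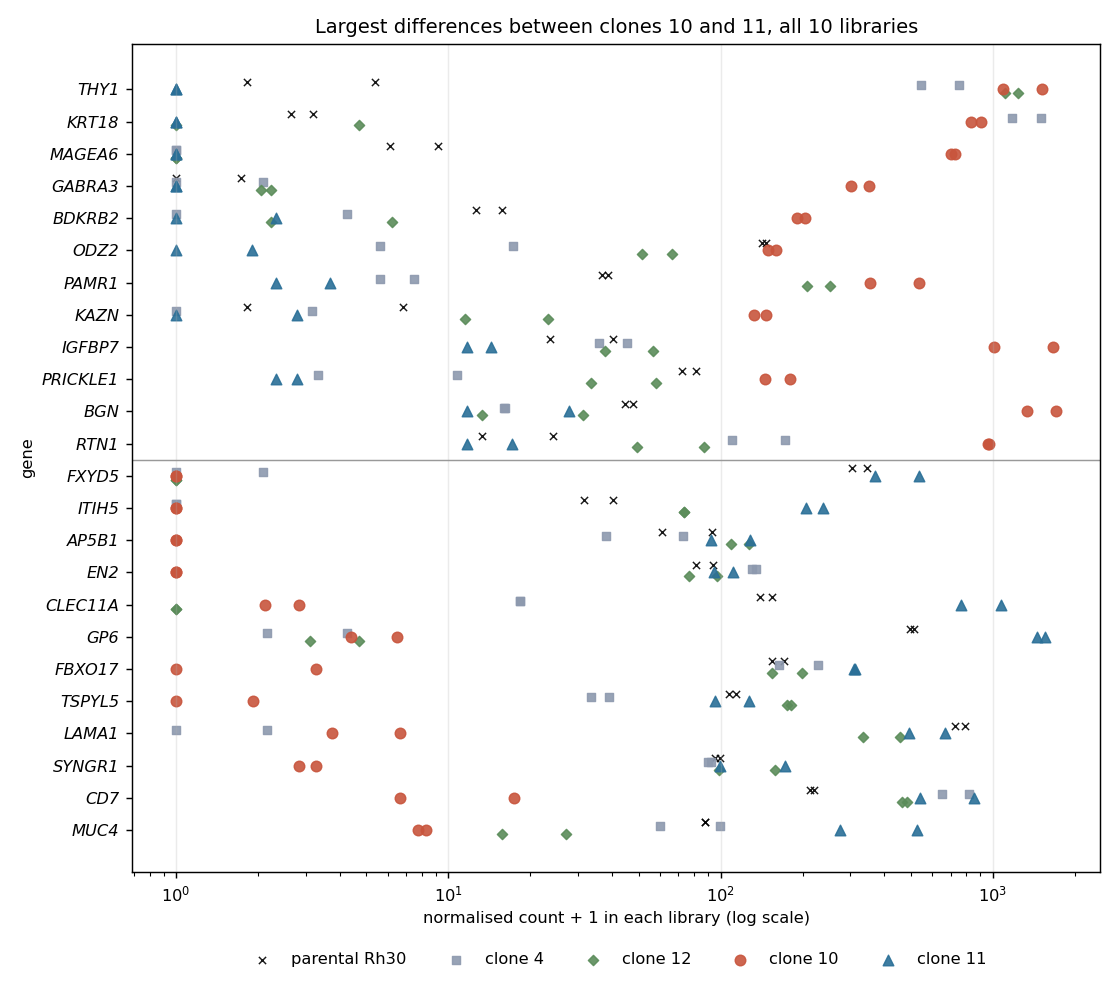
Normalised count plus 1 (log scale) in each of the 10 libraries of clones and parental cells for the 12 genes with the largest change each way. Genes higher in clone 10 are above the line and those higher in clone 11 below it. Each symbol is 1 library. THY1 and KRT18 were high in other tagged clones too, whereas MAGEA6 (704 and 725) and GABRA3 (349 and 300) were high in clone 10 alone.

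Start-site sequences are printed for 3 of these genes as examples of their content of CpG, the dinucleotide at which DNA is methylated. They are the 250 bases before the RefSeq start on GRCh38.p14, written 5′ to 3′ on the gene's strand, with every CG in capitals. MAGEA6 lies at chrX:152769690-152769939 on the minus strand, FXYD5 at chr19:35154485-35154734 on the plus strand and ITIH5 at chr10:7666967-7667216 on the minus strand.
MAGEA6: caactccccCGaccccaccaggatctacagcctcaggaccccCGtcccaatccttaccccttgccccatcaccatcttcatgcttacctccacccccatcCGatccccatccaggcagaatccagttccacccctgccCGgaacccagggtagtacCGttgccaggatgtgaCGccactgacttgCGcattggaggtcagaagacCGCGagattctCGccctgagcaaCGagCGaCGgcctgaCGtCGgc
FXYD5: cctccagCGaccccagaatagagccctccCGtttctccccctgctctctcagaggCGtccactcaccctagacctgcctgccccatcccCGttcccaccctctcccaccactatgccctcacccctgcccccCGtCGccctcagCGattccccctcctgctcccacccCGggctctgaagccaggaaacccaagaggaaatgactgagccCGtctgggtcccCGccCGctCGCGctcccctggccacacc
ITIH5: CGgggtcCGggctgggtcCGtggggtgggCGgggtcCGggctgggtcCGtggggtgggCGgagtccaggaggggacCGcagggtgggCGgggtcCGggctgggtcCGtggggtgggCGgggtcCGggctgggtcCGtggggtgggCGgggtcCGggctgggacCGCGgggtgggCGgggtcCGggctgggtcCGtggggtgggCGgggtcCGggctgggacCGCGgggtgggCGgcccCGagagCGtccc
These hold 15, 13 and 28 CG dinucleotides, and the ITIH5 stretch is a short unit repeated many times. A promoter is called CpG-dense below where GC content was at least 50% and CG was at least 0.6 of the number its base composition gives. Of 10 switched genes found in the RefSeq promoter table, 5 were dense, and so were 76.0% of 10781 tested genes. Of those printed, MAGEA6 and ITIH5 were dense, and FXYD5, with CG at 0.58 of that number, was not. Promoters of the switched genes held from 1 CG in ODZ2 to 32 in PRICKLE1. The dense share was 64.1% among genes at least 2-fold higher in clone 10 and 63.9% among those higher in clone 11. DNA methylation was not measured here.

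Genes without a count in one clone were also found at lower levels. EN2, a homeobox gene, was at 0 and 0 in clone 10 and at 110 and 93.4 in clone 11, at least 33.3-fold higher, and every library of the other 3 lines held between 75.4 and 134. AP5B1, a vesicle adaptor subunit, was at 0 and 0 against 91.4 and 127, at least 35.7-fold higher in clone 11, and was between 37.0 and 126 in the other lines. Both genes were thus present in every line but clone 10. SFRP1, a secreted Wnt inhibitor, ran the other way, at 87.4 and 66.5 in clone 10 and 0 in clones 4, 11 and 12, at least 22.98-fold higher than in clone 11. DESeq2 did not call SFRP1 (adjusted p = 0.153).

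Among genes detected in both clones, GP6, the platelet collagen receptor, was at 5.46 and 3.38 in clone 10 and at 1451 and 1557 in clone 11 (-8.34 ± 0.31, adjusted p = 1.23e-07, edgeR). Parental cells held 494 and 512, and clones 4 and 12 held 1.16 to 3.70, so clone 11 was the high line. SYNGR1, a synaptic vesicle protein, was at 1.82 and 2.25 against 98.6 and 171, and the other lines held 89.1 to 157. Here clone 10 was the low line. RTN1, a reticulon of the endoplasmic reticulum of neurons, was at 956 and 963 against 16.1 and 10.7 (6.10 ± 0.37, adjusted p = 2.78e-06, edgeR). MUC4, a membrane mucin, was at 7.28 and 6.76 against 273 and 526 (-5.80 ± 0.48). For RTN1 the other lines held 12.3 to 171 and for MUC4 14.8 to 98.6, levels between those of the compared clones or near one of them.

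Matrix genes were higher in clone 10. Of 21 extracellular matrix and fibroblast genes tested, 14 were called higher in clone 10 and none in clone 11, with a median log2 fold change of 1.09 (corrected 1.18) against 0.00 over all genes tested. Collagens overlap this list, and 16 of 26 were higher in clone 10 and 2 in clone 11, with a median of 1.18 (corrected 0.89). With the length correction and the replicate block together 6 collagens were higher in clone 11, as were 3153 of all 13145 genes tested in that setting. COL3A1, the fibrillar collagen of elastic tissues, was at 20709 and 21460 in clone 10 and at 1679 and 1929 in clone 11. The log2 fold change was 3.54 ± 0.32 (adjusted p = 4.44e-05, edgeR), and parental cells and clones 4 and 12 held 332 to 798. Clone 10 was thus far above, and clone 11 above, every other line. COL1A1, the main chain of type I collagen, was at 1209 and 1207 against 102 and 139 (3.33 ± 0.22, adjusted p = 4.48e-06, edgeR). Here clone 12 was higher still, at 2656 and 2002. COL1A2, which encodes the partner chain, was at 15.5 and 28.2 against 33.2 and 22.7 and was not called.

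BGN, which encodes the small matrix proteoglycan biglycan, was at 1338 and 1711 against 10.8 and 26.7 (6.42 ± 0.40, adjusted p = 3.05e-06, edgeR). The other lines held 12.3 to 46.6, so the level in clone 10 stood apart from all of them. IGFBP7, a secreted binder of insulin-like growth factors, had a like pattern, with 1008 and 1659 against 10.8 and 13.3 and 22.5 to 55.5 elsewhere (6.79 ± 0.37, adjusted p = 1.78e-06, edgeR). LOX, the enzyme that crosslinks collagen and elastin, was at 453 and 703 against 149 and 132 (2.03 ± 0.33). COL6A1, a chain of the microfibrillar collagen VI, was at 3391 and 3399 against 817 and 1203 (1.75 ± 0.21), and COL5A1, a regulator of fibril width, was at 15948 and 12087 against 3527 and 3974 (1.90 ± 0.27). All 3 were called. ELN and SPARC, for elastin and a collagen-binding glycoprotein, were higher by 1.09 ± 0.18 and 0.67 ± 0.15, while VIM and FN1, for vimentin and fibronectin, were at 0.35 and 0.50 and were not called.

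Not every fibroblast marker moved. LUM, DCN, POSTN and FAP, which mark fibroblasts in tissue, were at or under 13.5 normalised counts in all 4 libraries. The summed level of the list was 177293 and 183502 in clone 10 and 92346 and 102747 in clone 11 and 86081 to 140511 in the other lines. In bulk RNA, more cells of a kind and more RNA per cell cannot be told apart. The collagens higher in clone 11 were COL21A1 and COL9A2, at -0.87 ± 0.28 and -0.83 ± 0.29. Both calls were lost with library totals and without clone 10 replicate 1, clone 10 replicate 2 or clone 11 replicate 2, and that of COL21A1 also without clone 11 replicate 1 and with DESeq2.

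Adhesion receptors and their laminin ligands were higher in clone 10 as well. Of 26 integrin and laminin genes tested, 16 were higher in clone 10 and 3 in clone 11, with a median of 1.24 (corrected 1.14). ITGA11, an alpha chain of collagen receptors, was at 515 and 597 in clone 10 and at 8.07 and 12.01 in clone 11 (5.81 ± 0.32, adjusted p = 1.93e-06, edgeR). The other lines held 3.47 to 14.7, so clone 10 alone had this gene at a high level. ITGA3, for a laminin receptor chain, was at 353 and 433 against 51.1 and 74.8 (2.65 ± 0.25), and ITGA5, for the fibronectin receptor chain, was at 4058 and 4073 against 1170 and 1571 (1.57 ± 0.18). The broadly used beta chain gene ITGB1 was at 6549 and 7544 against 3397 and 3045 (1.13 ± 0.16).

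The laminins split. LAMA1, the alpha chain of embryonic laminin, was at 2.73 and 5.63 in clone 10 and at 491 and 667 in clone 11, the largest difference of this list in the other direction (-7.12 ± 0.41, adjusted p = 2.05e-06, edgeR). Parental cells held 788 and 727 and clone 12 held 332 and 456, while clone 4 was at 0 and 1.16. LAMB2, LAMC1 and LAMA2, chains of the laminins of muscle basement membrane, were higher in clone 10 by 1.65 ± 0.20, 1.65 ± 0.23 and 1.77 ± 0.26. ITGB4, the hemidesmosome integrin, was higher in clone 11 (-1.49 ± 0.19), as was LAMB3, a chain of the laminin it binds (-0.85 ± 0.17), whose adjusted p was 0.0504 without clone 10 replicate 1.

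YAP and TEAD-responsive genes were nearly all higher in clone 10. All 16 tested members were called, 15 higher in clone 10 and 1 in clone 11, with a median of 1.32 (corrected 1.19), against 35.8% of all genes called in either direction. Like all lists here, this one was chosen with earlier results of these data known, so its share is a description and not a test. Leaving out each library gave 12 to 14 higher in clone 10. CTGF, a matricellular protein and standard readout of YAP, was at 1002 in both clone 10 libraries and at 201 and 228 in clone 11 (2.22 ± 0.23, adjusted p = 9.39e-05, edgeR). CYR61, its relative, was at 4074 and 4317 against 1093 and 1161 (1.89 ± 0.24). MYOF, a membrane repair ferlin, was at 802 and 752 against 68.1 and 49.4 (3.70 ± 0.35), CRIM1, a membrane protein that binds BMPs, at 906 and 734 against 106 and 62.7 (3.25 ± 0.35), and AMOTL2, an angiomotin that binds YAP, at 4484 and 3163 against 719 and 501 (2.64 ± 0.33). For each of these 5 genes, clone 4 lay nearer to clone 10, and parental cells lay between the clones.

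Genes of the transducers themselves are counted among these 16 members and were also unequal. WWTR1, which encodes TAZ, was at 1895 and 2152 against 996 and 850 (1.13 ± 0.17), and TEAD1 was at 2818 and 2238 against 947 and 662 (1.64 ± 0.27). TEAD4, which encodes another TEAD factor, was the member lower in clone 10, at 1341 and 1412 against 2037 and 2682 (-0.78 ± 0.16). Its adjusted p was 0.0502 without clone 10 replicate 1. The factors of the same family thus differed in opposite directions, as the plot of list members shows.

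**Figure D3:**
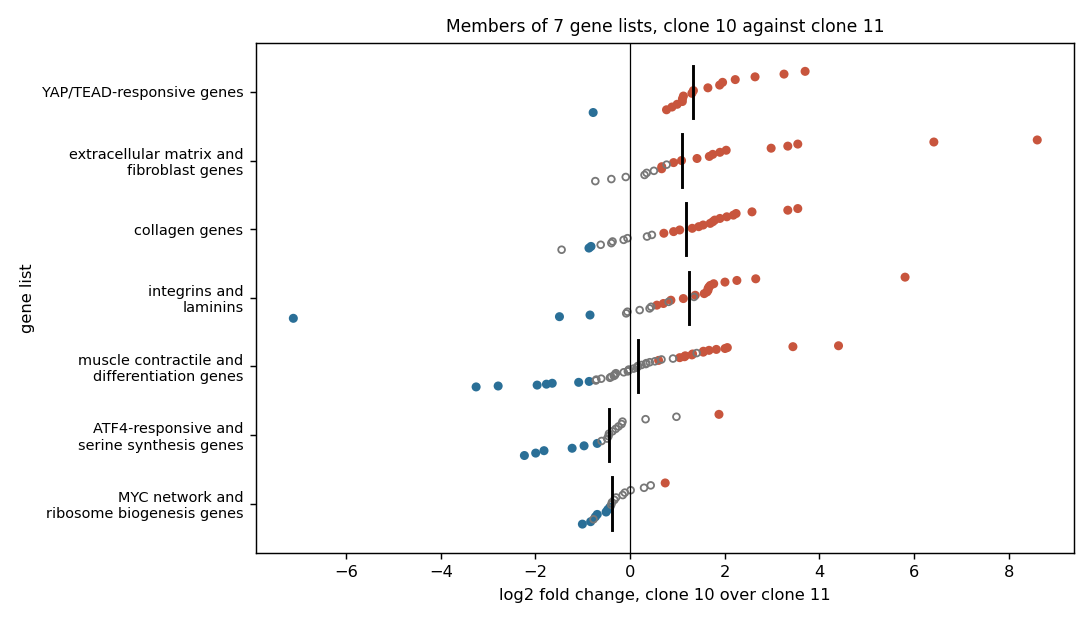
Log2 fold change of clone 10 over clone 11 for each tested member of 7 gene lists; filled points were called, open points were not, the bar is the list's median, and THY1, which has no count in clone 11, is drawn at its bound. All but 1 of the 16 genes of the YAP and TEAD list lie to the right of 0, while the ATF4 and MYC lists have medians of -0.45 and -0.39.

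Growth factor receptors and their feedback genes were more often higher in clone 10. Of 28 receptor tyrosine kinases and ligands, 12 were higher in clone 10 and 1 in clone 11 (median 0.48, corrected 0.26). With the length correction 9 were higher in clone 10 and 4 in clone 11, and with the block added 14 and 6. Leaving out clone 10 replicate 1, clone 11 replicate 1 or clone 11 replicate 2 left 6, 7 and 6 higher in clone 10. PDGFRB, a receptor of mesenchymal cells, was at 491 and 389 against 36.7 and 77.4 (2.98 ± 0.33), FGFR2 at 1014 and 831 against 236 and 239 (1.95 ± 0.25), and EPHA4, an ephrin receptor, at 924 and 901 against 146 and 116 (2.79 ± 0.43). The ligand FGF2 was at 331 and 311 against 83.4 and 69.4 (2.06 ± 0.21). NTRK3, a neurotrophin receptor, was the member higher in clone 11 (-1.19 ± 0.28), and its adjusted p was 0.064 without clone 10 replicate 1.

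ERK feedback and immediate-early genes, which rise when receptors signal through MAP kinases, had 8 of 20 members higher in clone 10 and 1 in clone 11 (median 0.67, corrected 0.51). With the length correction and the replicate block together 14 were higher in clone 10. This number was 5 without clone 10 replicate 2 or either clone 11 library. EGR1, an immediate-early transcription factor, was at 369 and 361 against 121 and 46.7 (2.08 ± 0.37), and FOS at 73.7 and 89.0 against 20.6 and 22.7 (1.90 ± 0.32). PHLDA1, an early response gene, was at 1605 and 1962 against 471 and 642 (1.68 ± 0.20). MYC was the member higher in clone 11, at 1114 and 1200 against 1625 and 1574 (-0.47 ± 0.15), a call lost when any 1 of the 4 libraries was left out, with library totals and with no low-count filter.

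Of 17 FOXO-responsive genes, 7 were higher in clone 10 and 1 in clone 11 (median 0.68, corrected 0.65). Without clone 11 replicate 2, 4 were called higher in clone 10. CITED2, a transcriptional coregulator, was at 2271 and 2193 against 639 and 555 (1.90 ± 0.15, adjusted p = 2.07e-05, edgeR), and IRS2, an insulin receptor substrate, was at 552 and 500 against 253 and 167 (1.31 ± 0.25). PDK4, a brake on pyruvate use, was the member higher in clone 11, at 24.6 and 9.01 against 60.9 and 37.4 (-1.53 ± 0.46), a call lost without clone 10 replicate 2 or clone 11 replicate 1. FOXO1 mRNA itself was not called, as given above.

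Among developmental signals, 7 of 19 Notch pathway genes were higher in clone 10 and 2 in clone 11 (median 0.42, corrected 0.58). NOTCH1 was at 4188 and 3487 against 1317 and 1330 (1.53 ± 0.22), its ligand JAG2 was higher by 1.12 ± 0.17 and LFNG, a glycosyltransferase that tunes Notch, by 1.03 ± 0.18. Of 28 Wnt ligands, receptors and inhibitors, 12 were higher in clone 10 and 4 in clone 11 (median 0.48, corrected 0.43). Leaving out clone 10 replicate 1 or either clone 11 library left 6, 8 and 8 higher in clone 10. WNT5B, a ligand of non-canonical Wnt signalling, was higher in clone 11, at 896 and 868 against 1855 and 2419 (-1.28 ± 0.20), and its paralogue WNT5A was higher in clone 10, at 935 and 943 against 508 and 402 (1.04 ± 0.20). LEF1, a nuclear factor of the pathway, was at 694 and 707 against 340 and 290 (1.15 ± 0.17). Ligands of one family thus differed in opposite directions.

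Neuronal genes had 9 of 17 members higher in clone 10 and 2 in clone 11, and their median of 0.80 was 0.46 after correction. TUBB3, a neuronal tubulin, was at 1858 and 2657 against 582 and 745 (1.77 ± 0.22), and L1CAM, an adhesion molecule of axons, was at 3353 and 2834 against 1209 and 1017 (1.47 ± 0.19). Clone 12 was above clone 10 for both. The clustered protocadherins are cell recognition genes on chromosome 5 that share exons within a cluster and cannot be fully separated by counting. Of 30 tested, 9 were higher in clone 10 and none in clone 11 (median 0.47, corrected 0.32). That is 30% called, against 35.8% of all genes tested. These calls numbered 5 and 0 without clone 10 replicate 1, and 5 and 1 without clone 11 replicate 2.

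HLA and antigen presentation genes, which show peptides to T cells, were more often higher in clone 10. Of 11 tested, 7 were higher in clone 10 and none in clone 11, or 7 and 1 with the length correction. The median was 1.77 (corrected 1.93), or 1.70 with the genes at 0 placed at their bound. The summed level of the list differed less, at 10145.6 and 12591.7 in clone 10 and 10148 and 9742.7 in clone 11. Clone 12 was above both, at 18154.6 and 16984.5. NLRC5, a transactivator of class I HLA genes, was at 227 and 217 against 38.5 and 52.1 (2.30 ± 0.29). HLA-C was at 38.2 and 51.8 against 0 and 0, at least 13.5-fold higher, and PSMB8, an immunoproteasome subunit, at 12.7 and 9.01 against 0 and 0, at least 3.25-fold higher. HLA genes are near-identical to one another and polymorphic, so their counts are uncertain. Parental cells and clone 4 held at most 0.819 for HLA-C.

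Interferon-stimulated genes had 7 of 17 members higher in clone 10 and 1 in clone 11 (median 0.37, corrected 0.61). OAS3, a sensor of double-stranded RNA, was at 79.2 and 101 against 0 and 0, at least 26.98-fold higher, and IFI6, a mitochondrial interferon-induced protein, at 675 and 835 against 128 and 163 (2.38 ± 0.24). BST2, which encodes the virus-restricting protein tetherin, was the member higher in clone 11, at 21.8 and 46.2 against 724 and 1319 (-4.93 ± 0.47, adjusted p = 6.47e-05, edgeR). Parental cells held 1452 and 1500 and clones 4 and 12 held 286 to 1554. BST2 was thus low in clone 10 alone, against the direction of the other called members.

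Muscle genes were split between the clones. Of 46 tested, 14 were higher in clone 10 and 7 in clone 11, and the median was 0.16 (corrected 0.20), or -0.00 without clone 11 replicate 1. Without clone 10 replicate 1 the calls were 9 and 2, without clone 11 replicate 1 they were 9 and 5 and without clone 11 replicate 2 they were 11 and 2. CKM, the muscle creatine kinase, was at 64.6 and 65.4 in clone 10 and at 342 and 558 in clone 11 (-2.79 ± 0.28, adjusted p = 8.02e-05, edgeR). The other lines held 215 to 684, so clone 10 was the low line. MYH7, the slow myosin heavy chain, was at 134 and 96.9 against 6.27 and 4.005 (4.40 ± 0.47), above the 13.9 to 61.8 of the other lines. TNNI2, a fast troponin, was at 613 and 521 against 1858 and 2562 (-1.96 ± 0.27), and MYPN, a Z-disc protein, was at 39.1 and 33.8 against 2.69 and 4.005 (3.44 ± 0.46).

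Of the myogenic transcription factors, EYA2, a transcriptional coactivator, was higher in clone 11, at 1177 and 1042 against 3136 and 3267 (-1.53 ± 0.15, adjusted p = 7.92e-05, edgeR). The other lines held 1362 to 1871, so clone 11 stood apart. MYOG, the differentiation factor myogenin, was at 8739 and 9380 against 12433 and 13678 (-0.53 ± 0.17), a call lost in 7 of 13 alternatives: with library totals, without any 1 of the 4 libraries, and with the length correction, blocked or not. DES, the muscle intermediate filament, was at 31453 and 34908 against 20149 and 23444 (0.60 ± 0.17), a call lost without clone 10 replicate 1, clone 10 replicate 2 or clone 11 replicate 1.

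Published targets of PAX3-FOXO1 did not move one way. Of 38, 7 were higher in clone 10 and 10 in clone 11, and the median was -0.05 (corrected -0.19), or 0.06 with library totals and 0.04 without clone 10 replicate 2. With the length correction and the replicate block 9 and 16 were called. Leaving out clone 10 replicate 1, clone 11 replicate 1 or clone 11 replicate 2 left 2, 3 and 2 higher in clone 10 and 8, 6 and 7 in clone 11, and leaving out clone 10 replicate 2 left 5 and 6. PIPOX, an oxidase of pipecolate and sarcosine, was at 322 in both clone 10 libraries and at 1234 and 2111 in clone 11 (-2.38 ± 0.24), and ASS1, an enzyme of arginine synthesis, was at 14410 and 14950 against 42110 and 46750 (-1.60 ± 0.18). PODXL2, a relative of podocalyxin, was at 755 and 864 against 159 and 178 (2.27 ± 0.22). For ASS1 clone 11 was the line that stood apart, with 11650 to 25490 in the other lines, and for PIPOX and PODXL2 it was clone 10.

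Growth and stress genes leaned to clone 11. Of 18 MYC network and ribosome biogenesis genes, 7 were higher in clone 11 and 1 in clone 10 (median -0.39, corrected -0.32). Without clone 10 replicate 1, 1 gene was called higher in clone 11, without clone 11 replicate 1 it was 3, without clone 11 replicate 2 it was 4, and with library totals it was 4. FBL, the nucleolar protein fibrillarin, was at 12400 and 14470 against 23930 and 29960 (-1.01 ± 0.18). Of 18 ATF4-responsive and serine synthesis genes, which mark the amino acid stress response, 6 were higher in clone 11 and 1 in clone 10 (median -0.45, corrected -0.35). TRIB3, a pseudokinase of this response, was at 757 and 829 against 1749 and 4567 (-1.995 ± 0.348), and ASNS, asparagine synthetase, at 531 and 597 against 1260 and 2715 (-1.82 ± 0.33). The libraries of clone 11 lay far apart for both, with replicate 2 the higher. In all, 3 genes were called higher in clone 11 without clone 10 replicate 1 or clone 11 replicate 2, and 11 without clone 11 replicate 1.

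Cell-cycle genes showed no common direction, and 38.5% of S phase and 28% of G2/M genes were called, against 35.8% of all genes tested. Of 26 S phase genes, 7 were higher in clone 10 and 3 in clone 11 (median 0.04), and of 25 G2/M genes 3 were higher in clone 10 and 4 in clone 11 (median -0.03), the former 6 with the replicate block. With 1 library left out, 2 to 5 S phase genes were called higher in clone 10. MKI67, the proliferation antigen, was at 9636 and 8452 against 3302 and 3225 (1.47 ± 0.23), and it lies in a run of called neighbours given below. AURKB, a mitotic kinase, was at 2775 and 3336 against 5100 and 6241 (-0.90 ± 0.18). Cholesterol synthesis genes had 9 of 19 higher in clone 10 and 1 in clone 11 (median 0.46, corrected 0.37). HMGCS1, an early enzyme of the pathway, was at 2732 and 2521 against 1267 and 1043 (1.18 ± 0.17). The number higher in clone 10 was 5 without clone 10 replicate 1 and 6 without clone 11 replicate 1.

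Lists of guidance, TGF-beta and hypoxia genes had calls both ways, with more of them higher in clone 10. Of 31 semaphorin, plexin, Slit and Robo genes, which guide axons and migrating cells, 11 were higher in clone 10 and 2 in clone 11 (median 0.41, corrected 0.23), or 10 and 6 with the length correction. NRP1, a coreceptor for semaphorins and VEGF, was at 402 and 627 against 110 and 92.1 (2.33 ± 0.27), and clone 11 was below every other line. Of 24 TGF-beta and BMP pathway genes, 8 were higher in clone 10 and 2 in clone 11 (median 0.51, corrected 0.50). With the length correction the numbers were 8 and 4, and 5 were higher in clone 10 without clone 11 replicate 2. TGFBR2, the type II TGF-beta receptor, was at 592 and 656 against 264 and 232 (1.32 ± 0.20), and again clone 11 was the low line. Of 19 hypoxia and glycolysis genes, 8 were higher in clone 10 and 2 in clone 11 (median 0.55, corrected 0.54), or 8 and 4 with the length correction. Those higher in clone 10 numbered 3 without clone 10 replicate 2, 4 without clone 11 replicate 1 and 5 without clone 11 replicate 2. ADM, which encodes the vasodilator adrenomedullin, was at 164 and 236 against 32.3 and 29.4 (2.68 ± 0.33).

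Of 20 potassium channel genes, 10 were higher in clone 10 and 5 in clone 11, and the median of 0.62 was 0.15 after correction. KCNJ8, a subunit of channels closed by ATP, was at 0 and 0 in clone 10 and at 51.1 and 76.1 in clone 11, at least 20.8-fold higher there. KCNMA1, the large-conductance calcium-activated channel, was at 20.02 and 18.03 against 0 and 0, at least 5.68-fold higher in clone 10. Imprinted genes, of which normally one parental copy is read, had 5 of 25 members higher in each clone (8 and 5 with the replicate block). That is 40% called, against 35.8% of all genes tested. Their median of 0.10 was -0.22 after correction. Without clone 10 replicate 1, 2 were higher in each clone, and without either clone 11 library the numbers were 2 and 3. SNRPN was at 785 and 865 against 2198 and 2880 (-1.62 ± 0.20), and clone 10 was below every other line. MAGEL2, a further imprinted gene of the same chromosome region, was at 970 and 901 against 426 and 379 (1.21 ± 0.19), above every other line. These imprinted neighbours thus differed in opposite directions.

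Of 13 BCL2 family genes, which control cell death, 4 were higher in clone 10 and 3 in clone 11. BCL2L1, for the survival protein BCL-XL, was at 2785 and 3521 against 1033 and 1507 (1.31 ± 0.21). With 1 library left out, 2 to 3 of the family were higher in clone 10 and 0 to 2 in clone 11. Of 23 cyclin-dependent kinase inhibitors and p53-responsive genes, 4 were higher in clone 10 and none in clone 11, against 18.8% and 17% of all genes tested, and 8 were higher in clone 10 after correction, or 11 with the block added. CDKN2B, an inhibitor of the cell cycle kinases CDK4 and CDK6, was at 109 and 84.5 against 23.3 and 20.02 (2.14 ± 0.35). Of 15 heat shock genes 3 and 2 were called higher in clones 10 and 11, of 10 cadherins 3 and 0, and of 7 replication-dependent histone genes 2 and 1. Of 6 cancer-testis antigen genes tested, MAGEA6 and MAGEA3 were higher in clone 10 and MAGEB1 in clone 11, at 0.910 and 0 against 25.1 and 36.0, and MAGEB1 was at 120 or more in every other library.

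**Figure D4:**
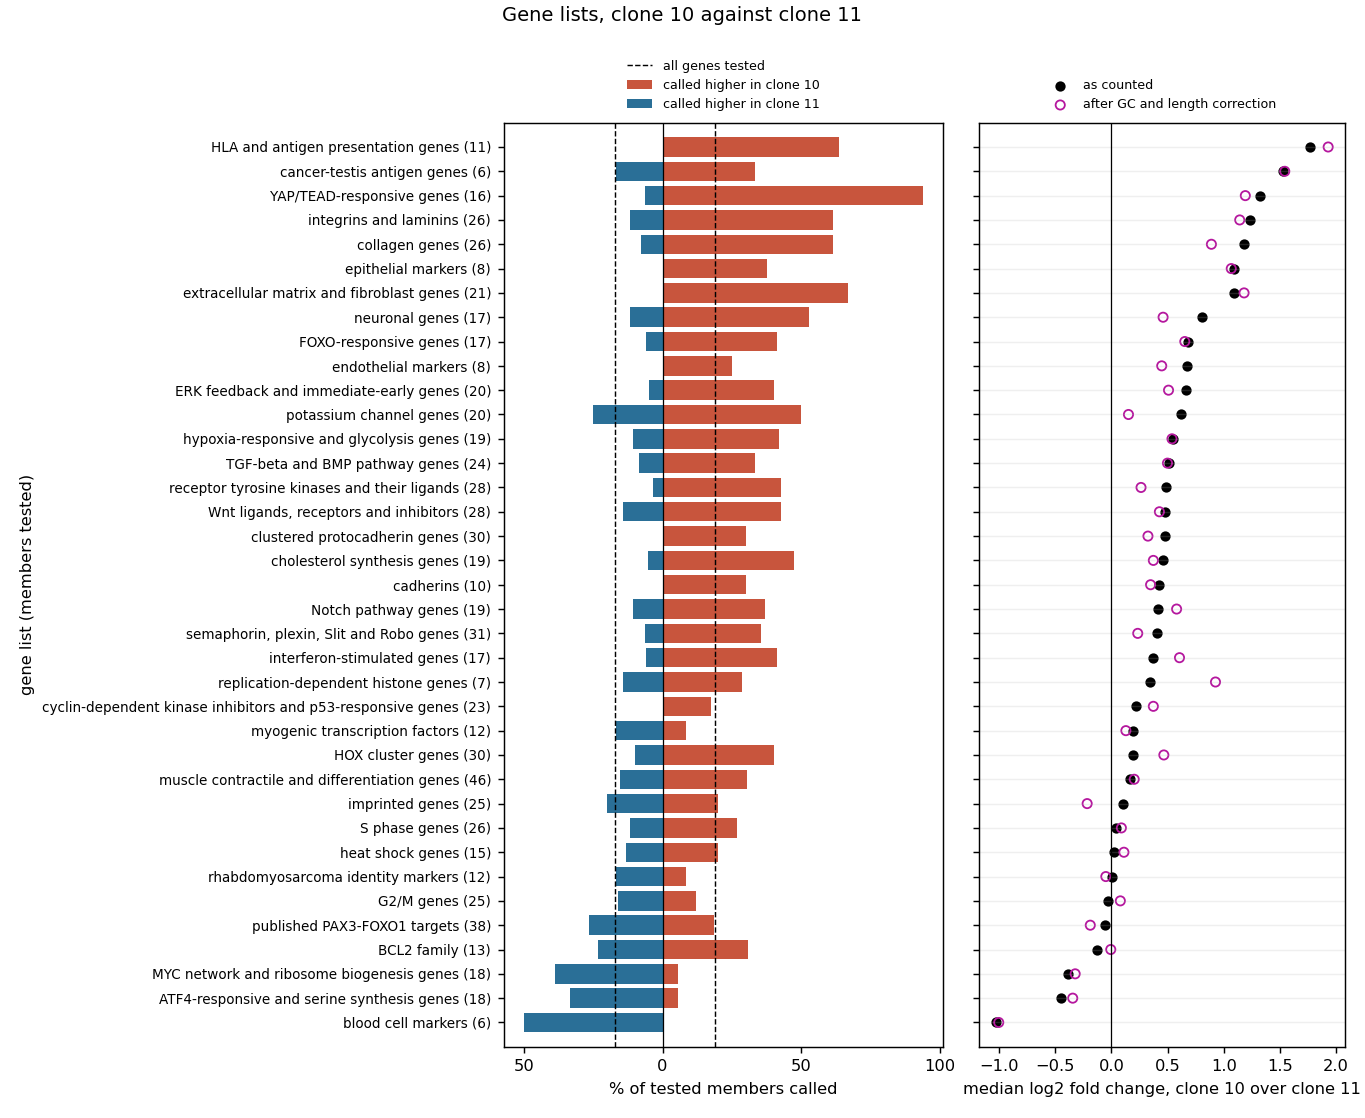
Left, percent of the tested members of each gene list (number tested in brackets) called higher in clone 10 (to the right) or clone 11 (to the left), with dashed lines at 18.8% and 17% for all genes tested; right, the list's median log2 fold change as counted and with the length and GC offsets. The HLA, cancer-testis, YAP, integrin, collagen, epithelial and matrix lists lie right of 1 on the log2 scale before correction. The blood, ATF4, MYC, BCL2, published target and G2/M lists lie left of 0. The lists were chosen with earlier results of these data known.

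Markers of other cell types were checked. The summed level of 16 epithelial markers was 1308 and 1412 in clone 10 and 295 and 386 in clone 11, most of it KRT18 in clone 10. Of 8 tested, 3 were higher in clone 10: KRT18, its partner KRT8 (174 and 142 against 36.7 and 65.4) and EPCAM, an adhesion molecule, whose call was lost without any 1 of the 4 libraries. CDH1 and KRT5, which define epithelia, had no count in any of the 4 libraries. The summed level of 21 blood cell markers was 624 and 913 in clone 10 and 1070 and 2432 in clone 11, most of it CORO1A, and PTPRC, CD3D and MS4A1 were at 0 throughout. CD79B, LCK and CORO1A were called higher in clone 11, the latter pair not without clone 10 replicate 1 or clone 11 replicate 2. CD7, a T-cell surface protein, was at 16.4 and 5.63 against 539 and 853 (-5.91 ± 0.38). All the other lines held CD7 at 211 to 817. Of 10 endothelial markers, which summed to 576 and 636 against 144 and 178, TIE1, a vascular receptor, was at 398 and 453 against 34.1 and 61.4 (3.18 ± 0.28), and ROBO4 was called as well but not without clone 11 replicate 1. CDH5, which defines endothelium, was under 26 in all 4 libraries and was not called.

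Differences were spread unevenly over the chromosomes. Chromosome names and gene order are those of RefSeq on GRCh38.p14, matched by symbol for 13365 of the genes tested. On chromosome 21 the median log2 fold change was 0.41 (126 genes, corrected 0.32), with 37.3% of genes called higher in clone 10 and 4.76% in clone 11. Chromosome 4 had a median of 0.36 (487 genes, corrected 0.29) and chromosome 3 of 0.26 (737 genes, corrected 0.29). Chromosomes 9, 10 and 12 were close to it, at 0.25, 0.24 and 0.23 (corrected 0.23, 0.23 and 0.21). On chromosome 13 the median was -0.40 (235 genes, corrected -0.43), with 32.8% called higher in clone 11 and 6.38% in clone 10. Chromosome 7 had a median of -0.29 (635 genes, corrected -0.29), and chromosome 2 and the X chromosome were at -0.23 and -0.24 (corrected -0.26 and -0.19). Chromosomes 19 and 15 were at -0.25 and -0.18 (corrected -0.18 and -0.23). Copy number was not measured here.

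**Figure D5:**
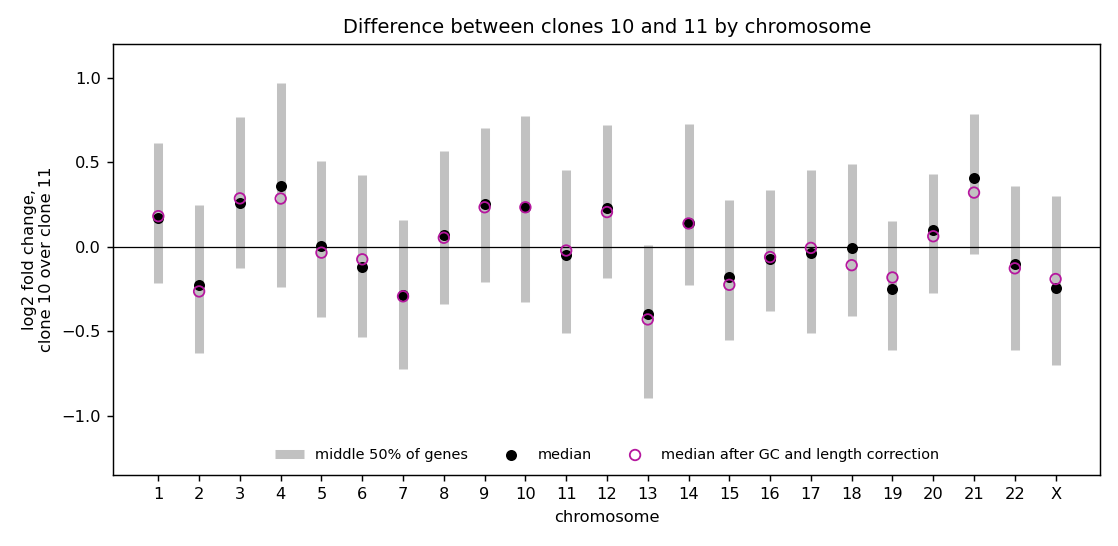
Median log2 fold change of clone 10 over clone 11 per chromosome (black points), the middle 50% of its tested genes (grey bars) and the same median with the length and GC offsets (open points). Chromosomes 1, 3, 4, 8, 9, 10, 12, 14, 20 and 21 lie above 0 before and after correction. Chromosome 5 changes sign, and the others lie below 0 both times.

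Some called genes lay next to one another, as some must where 35.8% of all genes tested were called. How many runs that share alone would give was not tested. Counting stretches of 3 or more consecutive tested genes all called the same way, 175 runs with 641 genes were higher in clone 10 and 147 runs with 554 genes in clone 11, and the longest held 8. A run on chromosome 17 held the keratin genes KRT20, KRT15, KRT16 and KRT17 and 3 keratin-associated genes between them, all higher in clone 11, with a median of -2.91. Near-identical copies of KRT16 and KRT17 can share reads with them. Another run on that chromosome held SLFN5, SLFN11, SLFN12 and SLFN13, Schlafen genes that restrict translation and viral growth, within 7 neighbours higher in clone 10 (median 1.73). On chromosome 10, IFIT1, IFIT2, IFIT3 and IFIT5, interferon-induced RNA binders, lay in a run of 6 genes with LIPA and PANK1 (median 1.49 toward clone 10). The call of IFIT3 was lost without clone 10 replicate 2 or either clone 11 library. MKI67 lay in a further run of 6 on chromosome 10, from FANK1 to EBF3 (median 1.45). On chromosome 11, AP5B1 lay in a run of 7 genes higher in clone 11, from KAT5 to FIBP, in which the others included CFL1, for cofilin. On chromosome 1, PADI1, PADI2 and PADI3, enzymes that turn arginine into citrulline, lay in a run of 5 higher in clone 10 (median 2.16).

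HOX genes, which keep positional identity, were called both ways. Of 30 tested, 12 were higher in clone 10 and 3 in clone 11 (median 0.19, corrected 0.47). HOXC10 was at 188 and 210 against 30.5 and 37.4 (2.55 ± 0.35), HOXC6 at 347 and 361 against 125 and 121 (1.51 ± 0.20) and HOXB6 at 346 and 405 against 131 and 135 (1.49 ± 0.21). HOXA11 was at 70.1 and 77.8 against 297 and 224 (-1.83 ± 0.24). Every called HOXB and HOXC gene was higher in clone 10, while the 3 genes higher in clone 11 were HOXA2, HOXA7 and HOXA11. HOXA6 was called higher in clone 10, at 24.6 and 12.4 against 4.48 and 8.01 (1.62 ± 0.57), so the HOXA genes went both ways. Its call was lost in 5 of 13 alternatives, with DESeq2, with no low-count filter and without clone 10 replicate 1 or either clone 11 library. HOXA2 lost its call without clone 10 replicate 2 or clone 11 replicate 1, and HOXA7 in 6 of 13 alternatives, library totals among them.

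The PAX3-FOXO1-FKBP line of the dTAG time course offers a further untreated sample of tagged cells, as 1 column that pools 2 DMSO samples. The labels used here do not say which clone that line is, and its table was made separately, so levels were compared as CPM, counts scaled to the library total, without a test. In that column THY1 had 975 estimated counts, KRT18 604, MAGEA6 755.7 and GABRA3 373.9. FXYD5, FBXO17, AP5B1 and EN2 were listed at 0, CLEC11A was at 2.07 and ITIH5 at 2.29. All 9 genes on in clone 10 alone of the pair, and all 5 on in clone 11, lay nearer to clone 10. So did 86.2% of 1404 genes at least 2-fold higher in clone 10 and 62.8% of 898 higher in clone 11. In the untreated FOXO1-FKBP line, where the tag is on FOXO1 and not on the fusion, the shares nearer to clone 10 were 46.2% and 41.9%, with 1 of the 9 and 2 of the 5.

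The PAX3-FOXO1-FKBP line was also given 500 nM dTAG, which removes the tagged fusion protein. After 72 h, genes that differ between the clones had median changes near 0 there. Genes at least 2-fold higher in clone 10 had a median log2 change of -0.06 (corrected 0.02, 1217 measured), and those higher in clone 11 of 0.09 (corrected -0.02, 600 measured). A 2-fold or larger gain at 72 h was seen in 12.5% of the former and a loss of that size in 6.82%. For the latter these shares were 3.83% and 8.17%. Over all genes they were 3.40% and 3.01%, so changes of this size were more frequent among genes that differ between the clones. In the FOXO1-FKBP line at 72 h, a 2-fold loss was seen in 2.98% of genes higher in clone 10, against 0.37% of all genes. Gains there were 0.10% against 0.03%. Genes higher in clone 11 had 0% of either in that line. The excess among genes higher in clone 10 was thus not confined to the fusion line. For the 16 genes of the YAP list the median change at 72 h was 0.84 in the fusion line and -0.29 in the FOXO1-FKBP line, and CTGF was at 2.44 and -0.37. In the fusion line the muscle list had a larger median, 2.32, and the published targets were at -0.68. The matrix, collagen, and integrin and laminin lists were at 0.04, 0.11 and -0.11. The FOXO-responsive, ATF4 and ERK feedback lists were at 0.05, -0.16 and -0.34. These columns carry no replicate error. Across 11865 genes, the clone difference and the change at 72 h had a Spearman correlation of -0.15. It was -0.04 after both were corrected for GC content and length.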

How the data were processed

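Per the file headers and the values, the authors deposited whole-number read counts per gene symbol, 1 column per clone or parental library, and estimated counts for the time courses, 1 column per condition that pools 2 samples. Per the submitters' processing notes, Trimmomatic 0.32, Bowtie2, Cuffdiff 2.1.1 and hg19 were used, with no roles given. The gene counter, annotation and use of strand were not found among the sources used here, so reads of overlapping or antisense genes cannot be told apart.

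Counts of the 8 tagged-clone libraries (17746684 to 24560297 reads) were fitted with edgeR 4.0.16 (R 4.3.3) with 1 mean per clone, which leaves 4 residual degrees of freedom. The fit used TMM factors, filterByExpr with a minimum count of 10, the quasi-likelihood test and Benjamini-Hochberg adjustment over all genes tested. Clones 4 and 12 were included to share the estimate of spread. Calls are at an adjusted p under 0.05. Normalised counts are TMM-scaled over the 10 libraries. Errors are standard errors of the log2 fold change, except that genes with 0 counts in a clone have a bound against 3 counts per library and those with 1 to 3 counts may have a ratio with an exact Poisson interval, which cover counting error only. Estimated counts were set against the clones as CPM plus 0.1, and time-course changes used a prior count of 2 and genes with a mean of at least 50. The 13 alternatives include DESeq2 1.42.0. The script was tested on simulated counts.

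Genes named are PAX3, FOXO1, the 12 largest called changes each way at a mean level of 50 or more, then up to 8 genes each way at 100 or more in one clone and at most 3 in the other, and up to 4 called members per list by lowest p. Other genes named, such as TEAD4, COL5A1, ITGB1 or those in runs, were chosen after their values were seen. The members and the 38 lists were chosen with earlier results of these data known. Mitochondrially encoded genes were not analysed here.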

Additional observations from a re-analysis of the deposited data

How the results depend on the processing

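Of 345 genes followed over 13 alternatives, all but MYL2, CASQ1 and PSMB8, tested in 12, 12 and 10, could be tested in every one. No called gene changed sign in an alternative run, and FOXO1, which was not called, ran from -0.06 to 0.59. In every alternative run, 194 kept their side of the threshold. Leaving out 1 library gave 1255 to 1918 genes higher in clone 10 and 808 to 1750 higher in clone 11, and with at least 2-fold change 993 to 1406 and 569 to 933. These fits assume that a lone library varies like the other clones. Of the 345 genes, 110 lost their call without clone 10 replicate 1, 72 without clone 10 replicate 2, 88 without clone 11 replicate 1 and 107 without clone 11 replicate 2. DESeq2 gave 2522 and 2429 calls, of which 2424 and 2215 were shared with the edgeR calls. No low-count filter gave 2994 and 2673, clones 10 and 11 alone gave 2901 and 2620, and all 10 libraries gave 3060 and 2894.

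With the replicate number as a block over clones 4, 10 and 11, 3102 genes were higher in clone 10 and 2865 in clone 11, and with the length and GC correction added 3280 and 3153. Deviations of same-numbered libraries correlated at 0.364 between clones 4 and 10, 0.157 between clones 4 and 11 and 0.147 between clones 10 and 11. With 2 pairs per contrast and no label that ties the numbers to a shared culture or day, the block was not used for the values above. Under the block, 1 of the 345 genes lost its call. A clone with no count sets only a bound, and 1 to 3 counts give a ratio with a wide counting interval.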
